A study of Mus musculus with 2 samples.

Results

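The SOCS family of cytokine feedback inhibitors was read on 2 oligonucleotide arrays of mouse thymocytes. Its 8 genes are Socs1 to Socs7 and Cish, and they were taken as every probe set annotated with exactly one of these symbols. A probe set is the group of short oligonucleotides that reads a transcript. The rule gave 24 of the 45101 probe sets in the table. They are 1 for Socs1, 6 for Socs2, 3 for Socs3, 4 for Socs4, 2 for Socs5, 3 for Socs6, 4 for Socs7 and 1 for Cish.

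One array held RNA of DN3 thymocytes from a Miz1 knockout and the other RNA of DN3 thymocytes from wild type, both of the C57BL/6 background. DN3 thymocytes are T cell precursors at the stage of T cell receptor beta rearrangement, sorted here as lineage-negative, CD44-negative and CD25-positive cells. Miz-1 is a transcription factor encoded by Zbtb17, and the study design describes the mutant as lacking the POZ domain, which such factors use to bind partner proteins. The sources used here do not give the age of the mice, how the deletion was driven or whether RNA of several animals was pooled.

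Each genotype had 1 array without a replicate. The spread between animals is therefore unknown, and no test of a difference was made. Signals are the deposited intensities on a linear scale. Ratios were taken on the log2 scale as knockout over wild type, after raising every signal below 394, the median of all non-control values, to that floor. A probe set is called measured where its mean signal exceeds the floor, and a ratio of at least 2-fold is described by its size alone. A fold with an array below the floor is only a lower bound. The number of arrays limits the precision. Probe sets differ in brightness for reasons of their own, so signals are compared between arrays and not between genes.

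Cytokine receptors signal through Janus kinases (JAKs), which phosphorylate STAT transcription factors, and STATs in turn induce several SOCS genes. SOCS proteins bind receptors or kinases through an SH2 domain and recruit an elongin and cullin ubiquitin ligase through a C-terminal SOCS box, which closes a negative feedback loop. In thymocyte precursors the loop acts on interleukin-7 receptor signalling through JAK1, JAK3 and STAT5. Socs1 is the member reported as a Miz-1 target in earlier lymphoid precursors, where Miz-1 keeps its expression low.

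The sequence around the transcription start differed between the members in which inducible motifs it held. RefSeq start windows of the GRCm38.p6 assembly, 250 bases before to 50 bases after the start, were matched for 4 members, Socs1, Socs3, Socs4 and Cish. Socs2, Socs5, Socs6 and Socs7 were not matched. Both strands were searched for TTCNNNGAA, the palindrome bound by STAT dimers, and for GAAA and GAAA with any 2 bases between them, the core of interferon-stimulated response elements bound by interferon regulatory factors. The first occurs in 8.3% of all 32851 windows of this length and the second in 3.44%. The following stretches are shown because they hold the matches, written in capitals, of Socs1, whose signal differed by less than 2-fold, and of Socs3 and Cish, whose signals were higher in the knockout. The Socs1 stretch lies at chr16:10785537-10785786 and the Socs3 stretch at chr11:117969367-117969616, both on the minus strand, and each ends at the base before the start. The Cish stretch is 30 bases at chr9:107296654-107296683 on the plus strand, from 5 bases before the start.
Socs1: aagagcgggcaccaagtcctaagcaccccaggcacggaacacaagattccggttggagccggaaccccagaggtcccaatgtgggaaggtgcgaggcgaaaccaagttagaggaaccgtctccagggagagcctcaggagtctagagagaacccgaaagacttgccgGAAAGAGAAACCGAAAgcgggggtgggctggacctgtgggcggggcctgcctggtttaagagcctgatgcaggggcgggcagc
Socs3: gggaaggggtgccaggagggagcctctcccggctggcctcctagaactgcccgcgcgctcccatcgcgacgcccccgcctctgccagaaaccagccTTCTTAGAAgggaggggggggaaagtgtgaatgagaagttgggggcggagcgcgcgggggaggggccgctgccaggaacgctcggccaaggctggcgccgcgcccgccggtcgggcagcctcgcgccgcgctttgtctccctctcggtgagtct
Cish: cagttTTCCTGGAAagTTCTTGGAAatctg

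Socs1 held 2 overlapping interferon-response matches, at -83 to -74 and -77 to -68 from the start, and no STAT match. Of all windows 0.225% hold 2 or more interferon-response matches, with overlapping ones counted. Socs3 held 1 STAT match at -154 to -146. Cish held 2 STAT matches just after the annotated start, at 1 to 9 and 12 to 20, and 0.457% of all windows hold 2 or more. Socs4 held neither motif in its window. A match describes these letters and is not evidence of binding.

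**Figure D1:**
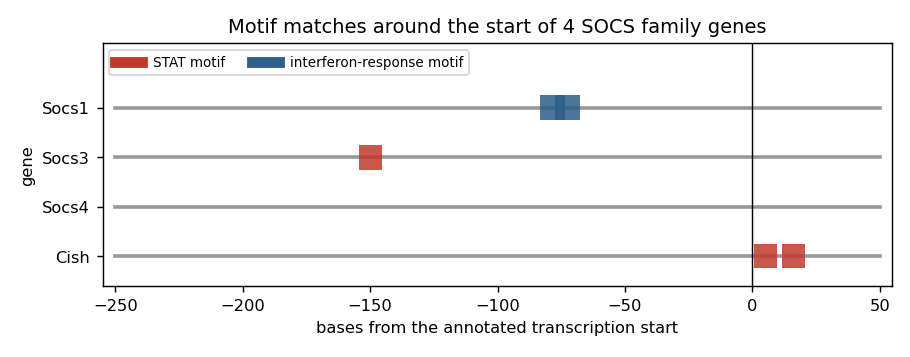
Motif matches in the RefSeq start windows of 4 SOCS family genes, with distance from the annotated start in bases on the x axis and a line per gene; red boxes are STAT matches (TTCNNNGAA) and blue boxes interferon-response matches (GAAA, any 2 bases, GAAA). Cish shows 2 STAT matches after the start, Socs3 1 before it, Socs1 2 overlapping interferon-response matches, and Socs4 neither.

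Over the family, 6 probe sets of 3 genes, Cish, Socs2 and Socs3, lay at least 2-fold above the wild type in the knockout, and 0 lay 2-fold or more below it. That is 25% of the 24 probe sets, where 3.97% of all 45037 non-control probe sets were that much higher and 2.64% that much lower. With probe sets ranked by mean signal and split into 4 equal groups, all 6 lay in the third and the fourth group, in which 9.33% and 6.57% of probe sets were 2-fold higher and 5.28% in each were 2-fold lower. Read by the brightest probe set of each gene, 3 of the 8 members were at least 2-fold higher, against 7.23% of 10770 measured genes, and 5.65% of measured genes were lower by that much. Of the 24 probe sets 20 were measured, with a median log2 ratio of 0.20 beside 0.04 over all 21897 measured probe sets. The pair of Socs2 probe sets past 2-fold exceeded the floor through the knockout array alone, so the measured members are not all members. Without the probe sets that can share sequence with other transcripts, 3 instead of 6 were at least 2-fold higher, and these were 1 of each of the 3 genes. The other 5 genes, Socs1, Socs4, Socs5, Socs6 and Socs7, had 12 measured probe sets with log2 ratios from -0.92 to 0.71. Among all probe sets past 2-fold, 60.1% were higher in the knockout, and 41.9% were when both arrays were centred on their median, which moved the median of measured probe sets to -0.12. Probe sets of a gene read the same RNA and are not replicates.

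**Figure D2:**
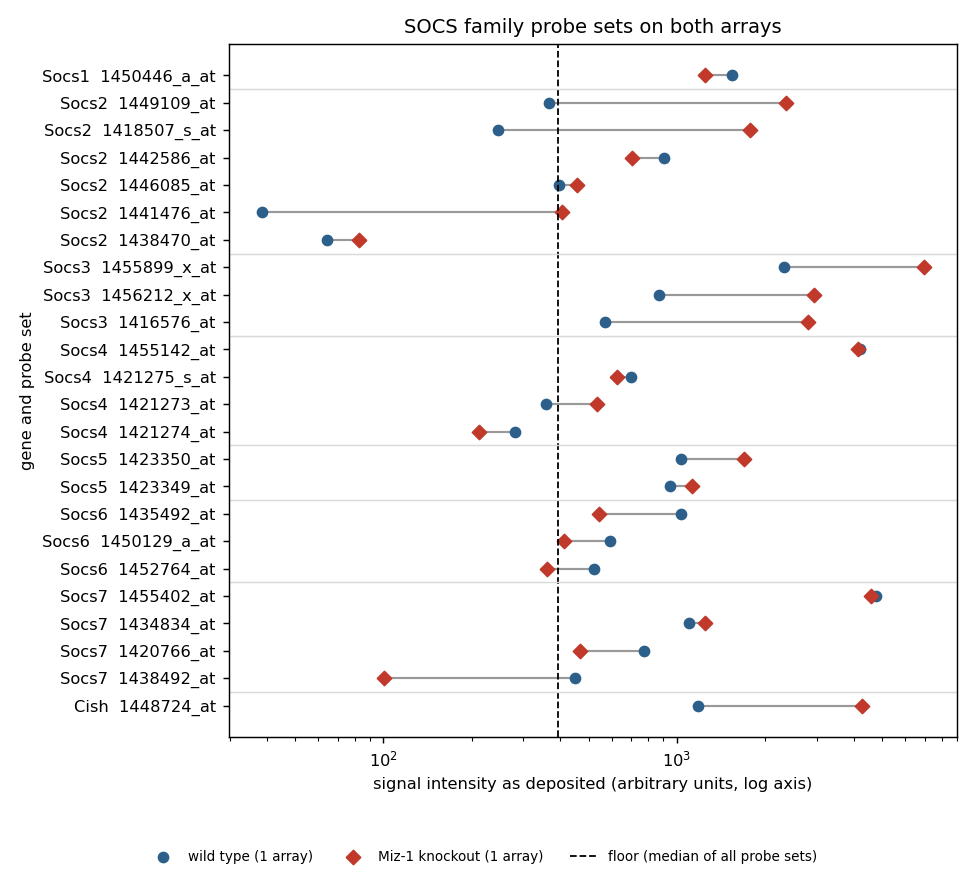
Deposited signal intensity of the 24 SOCS family probe sets (log x axis, arbitrary units) on the wild-type array (blue circles) and the Miz-1 knockout array (red diamonds), 1 array each, with grey lines joining the 2 values of a probe set and a dashed line at the floor of 394. Cish, all 3 Socs3 probe sets and the 2 brightest Socs2 probe sets lie to the right on the knockout array. The Socs6 probe sets lie to the left, and Socs2 1441476_at and Socs7 1438492_at are far apart but rest on a signal below the floor.

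Cish encodes the founding member of the family, a STAT5-induced protein that binds activated cytokine receptors. Its single probe set, 1448724_at, read 4266 on the knockout array and 1182 on the wild-type array. Both signals were above the floor, and the knockout was 3.61-fold higher, a log2 ratio of 1.85. Of all non-control probe sets 0.373% had a ratio at least as high. There is no second Cish probe set to set beside it.

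Socs2, which restrains growth hormone signalling and is likewise induced by STAT5, gave different answers by probe set. Probe set 1449109_at read 2350.3 on the knockout array and 368 on the wild-type array, at least 5.96-fold higher. Probe set 1418507_s_at read 1773 and 246, at least 4.50-fold higher. In both the wild-type signal lay under the floor, so the log2 ratios of 2.58 and 2.17 are lower bounds, and both are annotated with the RefSeq messenger RNA of Socs2. The remaining 4 are annotated with single expressed sequence tags, and none of them passed 2-fold. Probe set 1442586_at read 703 on the knockout array and 906 on the wild-type array, a log2 ratio of -0.37, and 1446085_at read 458 and 395, a log2 ratio of 0.21. Probe set 1441476_at read 407 and 38.5, so that only the knockout exceeded the floor, and by little. With the floor at 119, the 25th percentile of all signals, its log2 ratio was 1.78, again a lower bound. Probe set 1438470_at, at 82.7 and 64.5, was below the floor on both arrays.

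The 4 measured Socs2 probe sets thus lay at least 2.94 apart on the log2 scale, a lower bound because the upper values are bounds that passed the filter through the knockout array alone. Across 4514 genes with at least 2 measured probe sets the root mean square SD within a gene was 0.57, and among the 5 other members with at least 2 it was 0.36. Among 1764 genes with 3 or more measured probe sets, 13.1% had a probe set at least 2-fold higher and another below 0. The Socs2 values past 2-fold are those of the 2 probe sets annotated with its messenger RNA.

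Socs3 encodes an inhibitor that blocks JAK activity at gp130-type receptors and is induced by STAT3. It was higher in the knockout by all 3 of its probe sets. Probe set 1416576_at read 2787 on the knockout array and 571 on the wild-type array, 4.88-fold higher. Probe set 1456212_x_at read 2931 and 866, 3.38-fold higher, and 1455899_x_at read 6964 and 2318. Every one of these signals was above the floor, and the log2 ratios of 2.29, 1.76 and 1.59 had an SD of 0.36. In the background, 0.567% of the 1764 genes with 3 or more measured probe sets had all of them past 2-fold upwards. The IDs ending in _x_at mark probe sets that can share sequence with other transcripts. The probe set without that mark gave the highest of the 3 ratios.

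**Figure D3:**
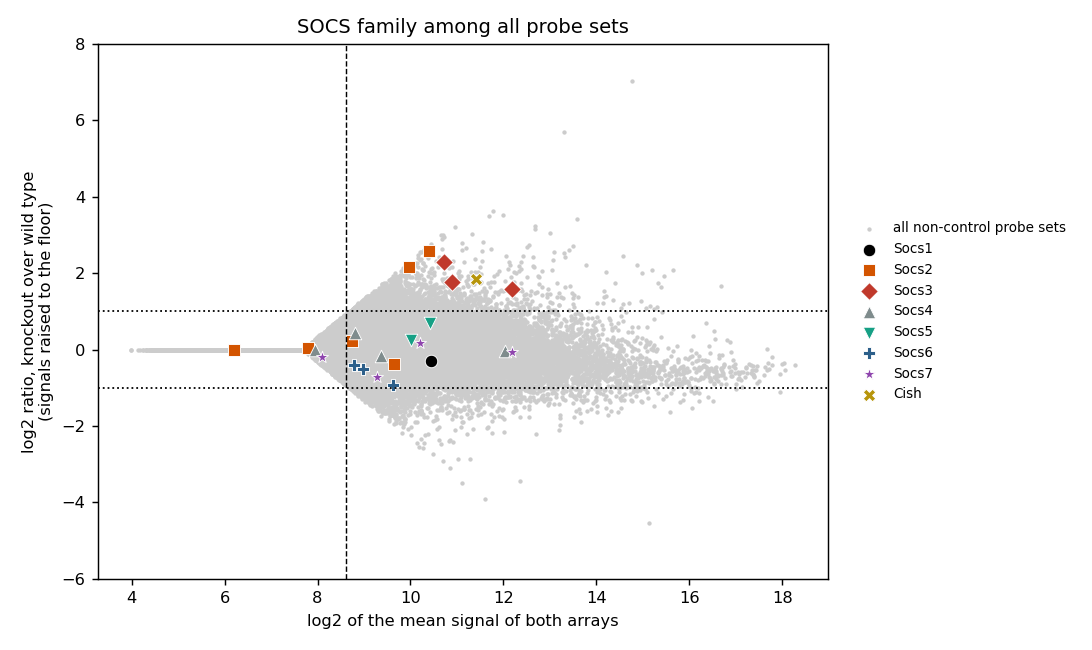
Log2 ratio of knockout over wild type (y axis, signals raised to the floor) against log2 of the mean signal of both arrays (x axis) for all 45037 non-control probe sets (grey) and the 24 SOCS family probe sets (coloured by gene), with dotted lines at 2-fold and a dashed line at the floor. Cish, Socs3 and 2 Socs2 probe sets lie above the upper line, and the other members lie between the lines.

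Socs1, which blocks JAKs directly and limits interferon and interleukin-7 signalling, was not higher in the knockout. Its single probe set, 1450446_a_at, read 1248 on the knockout array and 1542 on the wild-type array, both above the floor, a log2 ratio of -0.31. This difference is smaller than the SD of 0.57 between probe sets of a gene, and 17.0% of all probe sets had a ratio at least as low. Under 6 settings of normalization and floor the ratio stayed between -0.46 and -0.31.

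Socs4 and Socs5, relatives with long N-terminal regions that act on the epidermal growth factor receptor, differed by less than 2-fold in every probe set. Socs4 was read brightest by 1455142_at, at 4135 on the knockout array and 4213 on the wild-type array, a log2 ratio of -0.03. Its 1421275_s_at read 623 and 697 (-0.16), and its 1421273_at 536 and 358, with a log2 ratio of 0.44 after the floor. The remaining 1421274_at, at 211 and 281, was below the floor on both arrays. For Socs5 both probe sets were somewhat higher in the knockout, 1423350_at at 1689 against 1033 and 1423349_at at 1122 against 951, with log2 ratios of 0.71 and 0.24. A ratio of 0.71 or more was found in 8.53% of all probe sets.

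Socs6 and Socs7 are the remaining members, and Socs6 is known for acting on receptor tyrosine kinases such as KIT. All 3 Socs6 probe sets were lower in the knockout, though none by 2-fold. Probe set 1435492_at read 544 on the knockout array and 1029 on the wild-type array, a log2 ratio of -0.92. Probe sets 1450129_a_at, at 412 and 590.1, and 1452764_at, at 361 and 524, gave -0.52 and -0.41. These signals lie close to the floor, and on 1 array that of 1452764_at was below it. All measured probe sets were below 0 in 15.4% of the genes with 3 or more. With median centring, quantile or loess normalization 1435492_at passed 2-fold, at -1.08, -1.05 and -1.05.

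Socs7 did not move in a single direction. Its brightest probe set, 1455402_at, read 4593 on the knockout array and 4771 on the wild-type array, a log2 ratio of -0.05, and 1434834_at read 1251 and 1104, a ratio of 0.18. Its 1420766_at was lower, at 467 against 774 (-0.73). The faint 1438492_at read 100.4 and 449, with a mean below the floor and a bounded log2 ratio of -0.19. That ratio was -1.92 when the floor was lowered to the 25th percentile of all signals, 119.

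**Figure D4:**
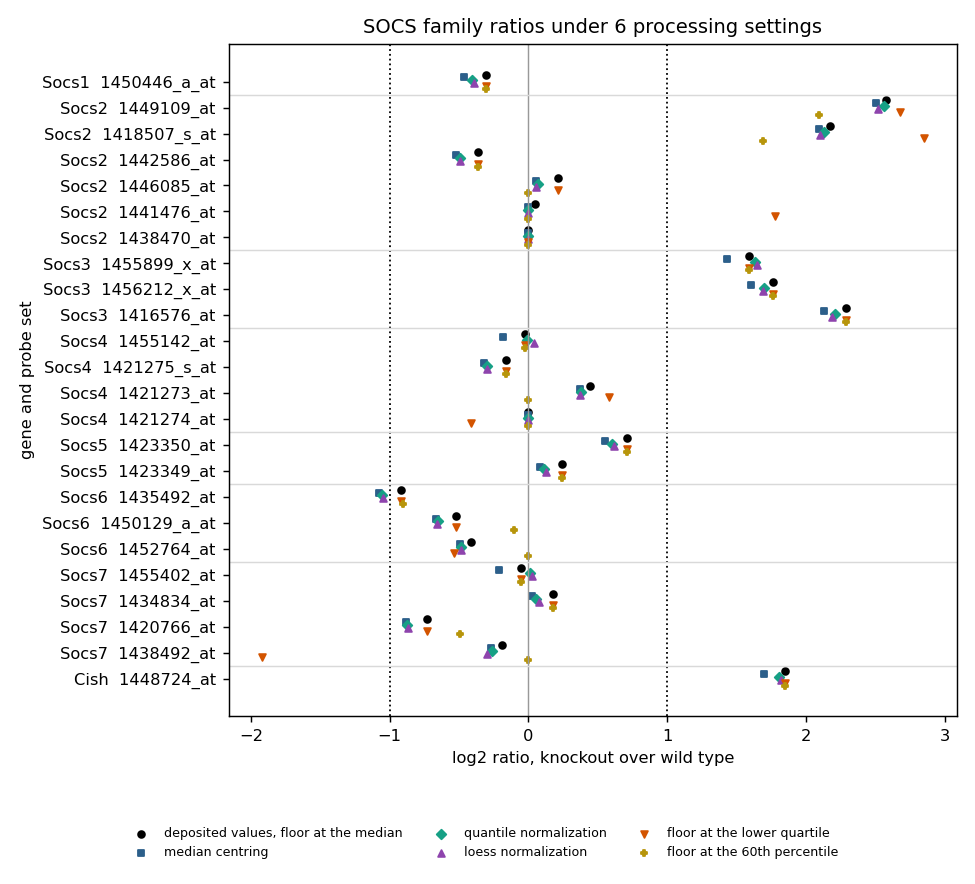
Log2 ratio of knockout over wild type (x axis) of the 24 SOCS family probe sets under 6 settings, shown by colour and symbol, with dotted lines at 2-fold. The 6 probe sets of Cish, Socs3 and Socs2 past 2-fold with deposited values stay to the right of the upper line in every setting, and the faint Socs2 1441476_at and Socs7 1438492_at move most, with the lower floor.

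Upstream of the family, the STAT genes lay on the positive side by their brightest probe sets, but only Stat2 passed 2-fold. Of the 7 STAT genes 6 had a named probe set, and all 6 had a positive log2 ratio by their brightest probe set, with a median of 0.73 beside 0.00 over all measured genes. Stat2, which carries type I interferon signals, was at least 2.33-fold higher, at 919 against 191, and no longer passed 2-fold with the floor at the 60th percentile. It was measured through the knockout array alone, which fixed the sign of its ratio. The log2 ratios were 0.65 for Stat5a and 0.53 for Stat5b, the interleukin-7 effectors, 0.68 for Stat3, 0.77 for Stat4 and 0.83 for Stat6. None of these 5 passed 2-fold by that probe set, and their other probe sets gave 0.12 for Stat5a, -0.06 for Stat5b and values down to -0.70 for Stat3. A second Stat6 probe set gave 1.70, a lower bound because its wild-type signal lay under the floor.

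Among the 4 JAK genes, Jak3, the kinase of the common gamma chain, was 2.93-fold lower by its measured probe set, at 474 on the knockout array against 1389.9 on the wild-type array. Jak1, Jak2 and Tyk2 had log2 ratios of 0.63, 0.32 and 0.38 by their brightest probe sets. A second Jak2 probe set, at 1061 against 111, gave at least 1.43. Of 28 cytokine receptor genes 16 were measured, 3 passed 2-fold upwards and 0 downwards by the brightest probe set, and the median log2 ratio was 0.22. The shares over all measured genes, 7.23% upwards and 5.65% downwards, are the background for this and the following lists. The 3 were Il2ra, the gene of the sorting marker CD25 (23017.9 against 4992), Ifngr1, an interferon gamma receptor chain (16848 against 6080.2), and Il10ra, an interleukin-10 receptor chain (922 against 243). Il7r, the interleukin-7 receptor chain, had log2 ratios of 0.88 and 1.44 by its 2 probe sets. Il10ra was measured by 1 of its 3 probe sets, an _x_at probe set with the wild-type signal under the floor, and it no longer passed 2-fold with the 60th percentile floor, which left 2 receptors. Il6st, the gp130 chain through which Socs3 acts, had a log2 ratio of 0.15 by its brightest probe set (723 against 652). Its other 2 measured probe sets were lower, at 383 against 901 and 144 against 822, with bounds of -1.19 and -1.06.

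Inhibitors of other families and the ligase partners of SOCS proteins were read in the same way. Of 14 other JAK-STAT inhibitors, all measured, 2 were at least 2-fold higher and 0 lower. Usp18, which restrains type I interferon receptor signalling, was 6.34-fold higher (4064 against 641) and Cblb, a ubiquitin ligase, 2.26-fold higher, with a list median of 0.06. All 3 Cblb probe sets had log2 ratios between 1.17 and 1.80. Of 8 genes of the elongin and cullin ligase, all measured, 0 passed 2-fold in either direction, with a median of -0.25. Of 27 other genes with a SOCS box 14 were measured, 1 was at least 2-fold higher and 0 lower, a share close to the background, and the median was 0.37. That gene was Asb1, of the ankyrin repeat branch, at 986 against 152, at least 2.50-fold higher and measured through the knockout array alone. It too no longer passed 2-fold with the 60th percentile floor. Dimmer probe sets of Wsb2 and Asb7 gave bounds of -1.22 and -1.03, with the knockout signal under the floor. The brightest probe sets of these genes gave 0.69 and 0.41.

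Genes that respond to the same STATs were counted next to the SOCS genes. Of 12 STAT5-responsive genes 9 were measured and 2 were at least 2-fold higher, Il2ra and Ccnd2, a D-type cyclin (27666 against 10377), while 0 were at least 2-fold lower. The median log2 ratio was 0.41. Dimmer probe sets of Bcl2, Mcl1, Pim1 and Ccnd3 also passed 2-fold upwards, at up to 1.99, 1.01, 1.23 and 1.57. By the brightest probe set 6 of the 9 measured genes lay above 0 and 3 below it. Those below were Ccnd3 at -0.50, Bcl2l1 at -0.38 and Myc at -0.38. The 7 measured probe sets of Ccnd2 ranged from 0.06 to 1.41, and the 6 of Mcl1 from 0.02 to 1.01. Quantile and loess normalization each gave 4 genes at least 2-fold higher. Of 21 interferon-responsive genes 18 were measured, 14 were at least 2-fold higher and 0 lower, with a median of 1.56. The 3 highest were Oas1a (3879.6 against 557), Usp18 and Nlrc5 (5843 against 937), with log2 ratios of 2.80, 2.66 and 2.64, whereas Socs1 stood at -0.31. Il2ra, Stat2 and Usp18 each stand in 2 of these lists.

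**Figure D5:**
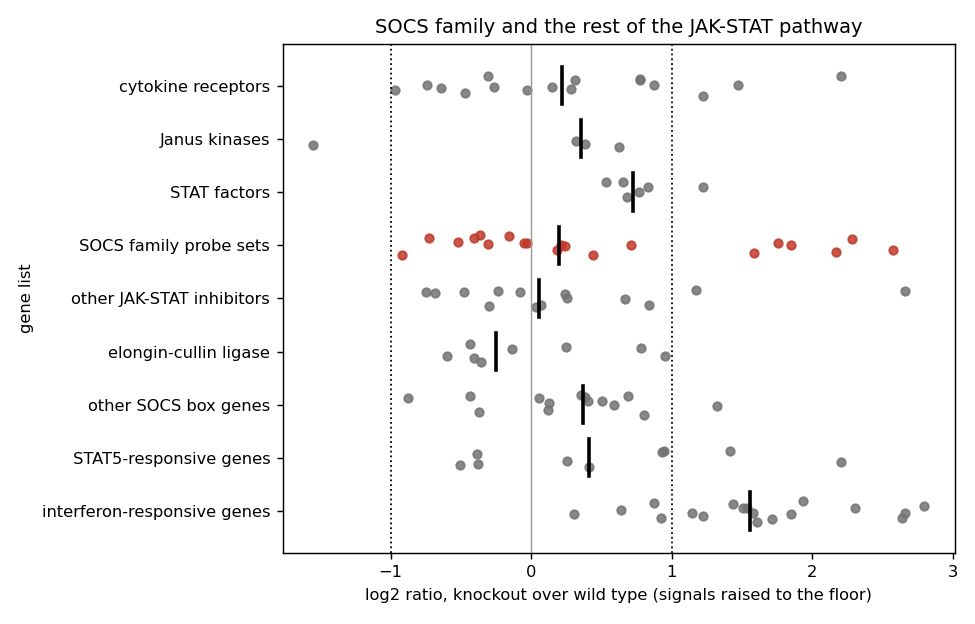
Log2 ratio of knockout over wild type (x axis) of measured genes in 8 pathway lists (grey, 1 point per gene by its brightest probe set) and of the 20 measured SOCS family probe sets (red), with black bars at list medians and dotted lines at 2-fold. The SOCS family splits into 6 probe sets above 1.5 and 14 between -0.92 and 0.71, and the interferon-responsive genes have the highest median, 1.56.

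Several features of the 2 arrays accompany these values. Of the 9 genes that mark DN3 cells 8 were measured, and 2 passed 2-fold upwards, Dtx1 (14456 against 2841) and Il2ra, with a summed signal of 189742 against 143211. Cd44, absent by the sort, had a mean below the floor. Of 9 myeloid markers 3 were measured and 2 passed 2-fold upwards, Lyz2 at 2646 against 736 and Csf1r at 1204 against 529, whose 3 measured probe sets ranged in log2 ratio between 0.05 and 1.37. The third measured marker, Adgre1, read 482 against 498. The summed signal of the 9 markers was 5867 against 2762, while Itgam, Cd68, Mpo, Elane and Fcgr3 were below the floor on both arrays. The part of other cells in the Socs3, Socs2 and Cish values was not tested, and in bulk RNA more cells of a type and more RNA per cell cannot be told apart. Of 6 stromal markers 4 were measured and Pdgfrb passed 2-fold upwards (8455 against 1839.8), with a summed signal of 14948 against 5957. The 5 named B cell markers summed to 4468 against 2667, and 0 of 3 measured passed 2-fold. The 5 named natural killer and innate lymphoid markers summed to 20673 against 23307, and 1 of 4 measured, Nkg7, passed 2-fold upwards (4655 against 1942). Most of that sum was Gzma (13881 against 19641), and of the 4 measured 2 had a ratio above 0 and 2 below. Summed signals are led by the brightest probe sets, here and in the other marker lists. The 6 named mature T cell markers summed to 3229.9 against 3978, and 1 of 3 measured, Klf2, passed 2-fold upwards (1051 against 162). The wild-type signal of Klf2 lay under the floor. Of the other measured markers Cd8a read 541 against 497 and Cd5 1399 against 2125. Cd8b1 (36.8 against 679) and Ccr7 (90.2 against 437) had a mean below the floor. The 3 named gamma-delta T cell markers summed to 3304 against 3121, and 1 of 2 measured, Maf, passed 2-fold upwards (1119.7 against 459). The other, Sox13, read 2116 against 2331, and Zbtb16 was below the floor on both arrays. The sums were 1144 against 1818 for 5 dendritic cell markers and 881 against 853 for 3 erythroid markers, with 0 of 1 measured past 2-fold in each. The female-specific RNA Xist had a signal of 55300.0 on the knockout array against 423, so sex and genotype cannot be told apart here. Zbtb17 read 1361 against 3042 by 1416224_at and 610 against 47.6 by 1443041_at, whose mean lay below the floor. Since the sources used here do not place these probes relative to the deleted part, the labels cannot be checked by Zbtb17.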

How the data were processed

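Total RNA of the sorted cells was transcribed into biotin-labelled cRNA, per the labels' protocols, and GCOS 1.4 is named in the submitters' processing notes. The deposited table gives a linear-scale intensity for each probe set. Both columns have a mean of 1000.0 after trimming 2% at each end, so the arrays had been scaled alike before deposit. GCOS settings and detection calls were not analysed here. Of 45101 probe sets, 64 controls were left out. Of the rest, 34945 had 1 gene symbol, 932 several and 9160 none. SOCS members were matched by annotated symbol, and other genes by symbols updated through gene identifiers (RefSeq, GRCm38.p6). Signals were floored at their median, and list genes were read by their brightest probe set, by Python 3.11.15 and pandas 2.3.3. The ratio and count steps were tested on simulated data in which only probe sets far above the floor were changed. Ratios that rest on the floor were not tested in that way.

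Members and lists were chosen with earlier results of these data known. Named genes are all member probe sets, all measured JAK and STAT genes, up to the 3 highest and 3 lowest past 2-fold of each pathway list, and Zbtb17. Il7r, Il6st, Bcl2l1, Myc, Xist, the marker genes and genes given by a dimmer probe set were named after their values were seen. With 2 arrays a pattern is a single ratio, so no gene was named for a pattern like that of a member.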

Additional observations from a re-analysis of the deposited data

How the results depend on the processing

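Values were recomputed with median centring, with quantile and loess normalization, with a floor at the lower quartile or the 60th percentile, by rules of 1.5-fold and 3-fold, without probe sets of shared sequence, with updated symbols and, for lists, by the mean over probe sets. Of 120 alternative log2 ratios of the members, 117 moved by less than 0.57, the SD within genes. The other 3 came with the lower floor, at 2.85 for Socs2 1418507_s_at, 1.78 for Socs2 1441476_at and -1.92 for Socs7 1438492_at. A changed floor cannot move a ratio whose signals both lie above the old and the new floor. Part of the agreement was therefore fixed in advance. Without probe sets of shared sequence, 3 member probe sets were at least 2-fold higher instead of 6. With the lower floor 7 were, beside 16.1% of all non-control probe sets. Median centring, quantile and loess normalization and the lower floor each gave 1 member probe set at least 2-fold lower, and the 1.5-fold rule gave 2. Of all non-control probe sets 3.98%, 3.08%, 3.06% and 12.5% were at least 2-fold lower in these settings, in the same order. The share under the 1.5-fold rule was not computed. Under each of the 3 normalizations 1 cytokine receptor and 1 other SOCS box gene were at least 2-fold lower. Of 9 measured STAT5-responsive genes 4 were at least 2-fold higher under quantile and loess, where 3.35% and 3.37% of all non-control probe sets were. With the lower floor 7 of 24 measured cytokine receptors were higher and 3 lower. Of 24 measured SOCS box genes 3 were higher and 3 lower. At this floor 16.1% of all non-control probe sets passed 2-fold upwards and 12.5% downwards. With the 60th percentile floor 0 STAT genes and 0 other SOCS box genes were at least 2-fold higher, where 2.42% of all non-control probe sets were. These shares are over all non-control probe sets, many of them below the floor, and the list counts are over measured genes. The 2 are not alike, and the share over measured genes was not computed for these settings. The floors change the counts by raising or releasing faint signals; the cause of the other changes was not tested. No paired analysis was possible because each genotype has 1 array and the labels share no replicate number.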
